A study of Mus musculus with 9 samples.

Results

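Levels of the claudin genes Cldn1, Cldn3, Cldn4, Cldn5, Cldn6, Cldn7, Cldn9, Cldn10 and Cldn12 were read from expression arrays of Dgcr8 KO, Dicer KO and wild-type (WT) mouse embryonic stem (ES) cells. The genes were found by their symbol in the platform annotation: 9 genes, carried by 10 transcript clusters (sets of probes that the array treats as 1 transcript), of 19938 genes with a cluster of their own and 35557 clusters on the array. All 10 clusters passed the filter on annotation described with the methods, and no filter on low values was used. The 9 genes were picked because Cldn6 and Cldn7 separate the 2 mutants. The values of Cldn6 and Cldn7, and those of every claudin in Dgcr8 KO against Dicer KO, are therefore given as a description with no test. The other 7 genes were tested in each mutant against WT.

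ES cells of 3 genotypes were profiled on 9 Affymetrix mouse gene arrays with 3 Dgcr8 KO, 3 Dicer KO and 3 WT arrays, and the sources name no treatment. WT cells were of the line v6.5. Dgcr8 KO cells carry a deletion of exon 3 of Dgcr8, the subunit of the Microprocessor that binds primary miRNAs beside Drosha, and Dicer KO cells lack Dicer1, the enzyme that cuts precursor miRNAs into miRNA duplexes. The derivation of both mutant lines was described elsewhere, so how many clones stand behind each is not given in the sources used here. The labels speak of cells plated in triplicate and the methods of biological replicates, so p-values may measure only the spread between plates of 1 line.

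Claudins are membrane proteins that cross the membrane several times and join those of the neighbouring cell, and so form the strands of tight junctions. Which claudins a cell makes sets how tight the junction is and which ions pass it. They are anchored to scaffold proteins inside the cell, and their genes are known to be switched on with the epithelial programme and repressed by factors such as Zeb1 and Snai1. ES cells and the epiblast they come from have epithelial features, and Cldn6 is known as a claudin of early embryonic epithelia.

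Each targeted gene was lowest in the mutant named for it. Dgcr8 read 8.74, 8.96 and 8.86 on the log2 scale in Dgcr8 KO cells, against 9.76 to 9.82 in WT cells, and Dicer1 read 8.32 to 8.43 in Dicer KO cells, against 10.18 to 10.23 in WT cells. Array medians lay between 6.49 and 6.56. The summed level of 10 ES cell markers was 15.28 to 15.31 in Dgcr8 KO, 15.42 to 15.43 in Dicer KO and 15.04 to 15.09 in WT cells on the log2 scale, and in each mutant 7 of the 10 were called higher than in WT and 1 lower. Pou5f1, Nanog and Sox2 were above their WT values on every mutant array, Utf1 was below them on every mutant array, with log2 ratios of -0.45 in Dgcr8 KO cells and -0.51 in Dicer KO cells, and Zfp42 overlapped. With limma, a transcript was called where its adjusted p over the 22999 transcripts counted was below 0.05. Set against WT, Dgcr8 KO had 15.7% of transcripts called higher and 17.3% called lower, and Dicer KO had 17.8% called higher and 19.1% called lower. These are the shares against which the counts of claudins and of other gene lists are read. Which direction held more calls moved with the scaling: after each array was centred on its median, Dicer KO had 4476 transcripts higher and 3324 lower, in place of 4087 and 4387. Both comparisons share the 3 WT arrays.

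Of these claudins Cldn6 differed most between the mutants. It lies on chromosome 17 (23679348 to 23682446, GRCm38.p6). Its log2 level was 7.54, 7.73 and 7.82 on the Dgcr8 KO arrays, 10.32, 10.27 and 10.27 on the Dicer KO arrays and 10.46, 10.47 and 10.59 on the WT arrays. The 3 genotypes did not overlap, and the Dgcr8 KO arrays stood far below the other 6. The mean was 7.70 ± 0.141 in Dgcr8 KO and 10.51 ± 0.0719 in WT cells (SD, n = 3 each), a log2 ratio of -2.81, or 7.01-fold lower in Dgcr8 KO. Dicer KO cells averaged 10.29 ± 0.0304 (SD, n = 3), a log2 ratio to WT of -0.22, or 1.16-fold lower. Between the mutants the log2 ratio, Dgcr8 KO minus Dicer KO, was -2.59. Over 21 other ways of processing the arrays the ratio to WT stayed between -2.87 and -2.73 in Dgcr8 KO, while that of Dicer KO stayed between -0.24 and -0.17.

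Cldn7, a claudin of simple epithelia that binds the adhesion protein Epcam, went in opposite directions in the 2 mutants. It lies on chromosome 11 (69964779 to 69967886). The Dgcr8 KO arrays read 7.96, 8.06 and 8.14, the Dicer KO arrays 9.62, 9.61 and 9.61, and the WT arrays 8.52, 8.44 and 8.50. Each genotype was clear of the other 2, in the order Dgcr8 KO, WT, Dicer KO from low to high. The log2 ratio to WT was -0.43 in Dgcr8 KO (1.35-fold lower), while that of Dicer KO was 1.12 (2.18-fold higher), and Dgcr8 KO minus Dicer KO came to -1.56. Unlike for Cldn6, whose Dicer KO level was close to that of WT, the larger shift of Cldn7 from WT was in Dicer KO.

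**Figure D1:**
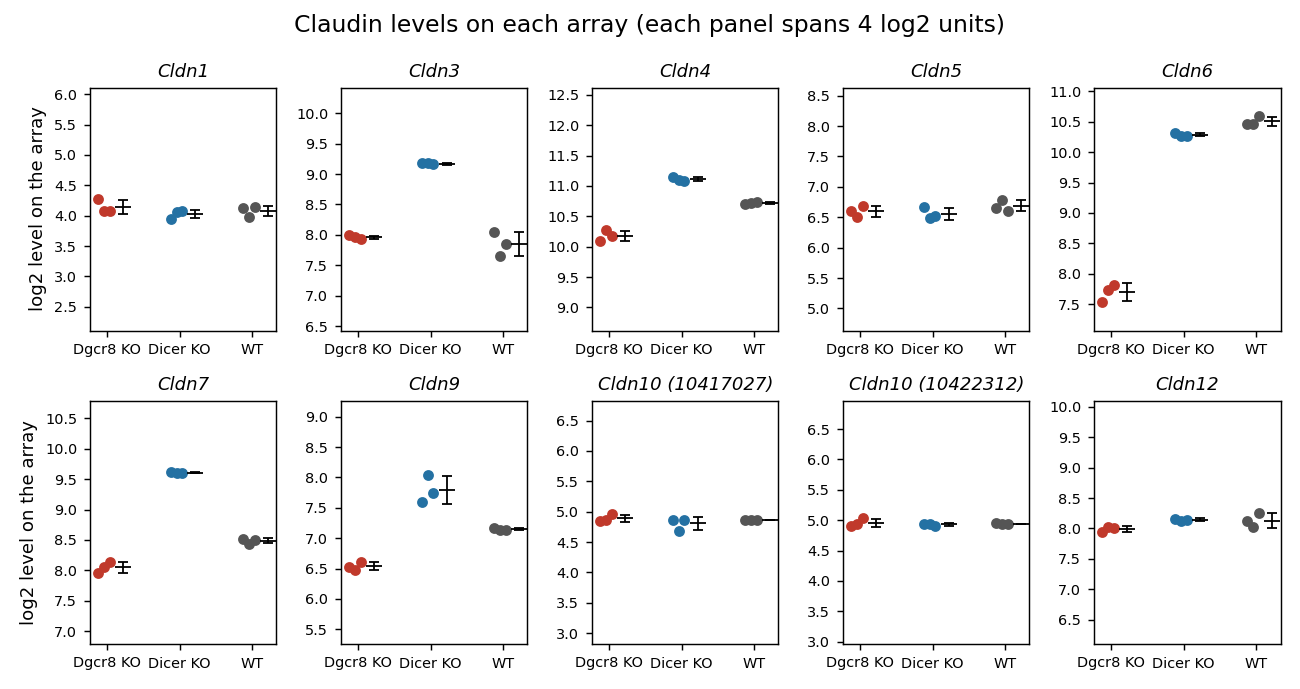
Log2 level of each claudin cluster (y axis, 4 log2 units per panel, with its own offset) on every array of the Dgcr8 KO, Dicer KO and WT cells (x axis). Coloured points are arrays, and the black mark beside them is the mean with 1 SD (n = 3). Cldn6 is far lower on the Dgcr8 KO arrays (7.54 to 7.82) than on the other 6, Cldn3 is high on the Dicer KO arrays alone (9.16 to 9.19), Cldn4, Cldn7 and Cldn9 are lowest in Dgcr8 KO and highest in Dicer KO, and the panels of Cldn1, Cldn5, Cldn10 and Cldn12 are nearly level.

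Of the 7 claudins tested (8 clusters), 2 clusters were called lower and 0 higher in Dgcr8 KO than in WT cells, with a median log2 ratio of -0.04, beside -0.01 for all transcripts. In Dicer KO cells 3 were called higher and 0 lower, with a median of -0.01, beside -0.06 for all transcripts. The clusters called were those of Cldn4 and Cldn9 in Dgcr8 KO and of Cldn3, Cldn4 and Cldn9 in Dicer KO. A count of 2 lower of 8 is 25%, beside 17.3% of all transcripts, while 3 higher of 8 is 37.5%, beside 17.8%.

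Cldn9 is the neighbour of Cldn6 on chromosome 17 (23682584 to 23684026), with 137 bases between the 2 gene models and 0 genes between them, and it is known to be needed in the inner ear of the mouse. Its log2 level was 6.53, 6.48 and 6.61 in Dgcr8 KO cells, 7.59, 8.04 and 7.75 in Dicer KO cells and 7.17, 7.14 and 7.14 in WT cells. The genotypes did not overlap, and the Dicer KO arrays spread most, by an SD of 0.231 against 0.0701 in Dgcr8 KO and 0.015 in WT. Cldn9 fell in Dgcr8 KO (log2 ratio -0.61, SE 0.1, limma adjusted p = 0.00108) and rose in Dicer KO (0.64, SE 0.1, limma adjusted p = 0.000714). The difference between the mutants was -1.25. Both neighbours lay below WT in Dgcr8 KO cells, but not in Dicer KO cells, where Cldn6 was 0.22 below and Cldn9 0.64 above WT on the log2 scale. How far the probes of these 2 related genes pick up each other's transcript was not tested.

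Cldn4, known in human and mouse as a receptor of Clostridium perfringens enterotoxin together with Cldn3, had the same order of genotypes as Cldn9. The values were 10.10, 10.27 and 10.17 in Dgcr8 KO, 11.14, 11.09 and 11.08 in Dicer KO, against 10.70, 10.72 and 10.73 in WT cells. Again the genotypes were separate, with Dgcr8 KO lowest and Dicer KO highest. Cldn4 fell by 0.54 on the log2 scale in Dgcr8 KO (1.45-fold, limma adjusted p = 3.94e-05) and rose by 0.39 in Dicer KO (1.31-fold, limma adjusted p = 0.000267). The SE of each log2 ratio was 0.0522, and Dgcr8 KO minus Dicer KO was -0.93.

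Cldn3 lies beside Cldn4 on chromosome 5 (134986214 to 134987476, against 134945123 to 134946934 for Cldn4), 39279 bases away and with 0 genes between them. Its log2 level was 7.99, 7.97 and 7.93 in Dgcr8 KO cells, 9.19, 9.18 and 9.16 in Dicer KO cells and 8.05, 7.66 and 7.85 in WT cells. The Dicer KO arrays stood above the other 6, among which Dgcr8 KO and WT overlapped. Cldn3 rose in Dicer KO by 1.32 on the log2 scale (SE 0.0845, 2.5-fold, limma adjusted p = 1.98e-06), the largest ratio of the 7 claudins tested. In Dgcr8 KO its ratio was 0.11 (SE 0.0845, limma adjusted p = 0.386). That comparison leaned on WT replicate 1: without it the ratio was 0.21 and the limma adjusted p 0.0283, within a range of 0.0283 to 0.899 over 21 alternatives. The neighbours Cldn3 and Cldn4 thus both rose in Dicer KO, while in Dgcr8 KO only the fall of Cldn4 passed the test, and whether the 2 genes differ there was not tested.

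Cldn12, on chromosome 5 (5505015 to 5514976), is a claudin that lacks the usual scaffold-binding tail. It read 7.94, 8.02 and 8.01 in Dgcr8 KO, 8.16, 8.12 and 8.14 in Dicer KO, against 8.12, 8.03 and 8.26 in WT cells. The Dgcr8 KO arrays lay just below the WT arrays and the Dicer KO arrays among them. The log2 ratios to WT were -0.14 in Dgcr8 KO (limma adjusted p = 0.119) and 0.00 in Dicer KO (limma adjusted p = 0.962), with an SE of 0.0626. Without WT replicate 2 the ratio in Dgcr8 KO was -0.20 and the limma adjusted p 0.0413, within a range of 0.0413 to 0.348 over 21 alternatives.

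Cldn5, the claudin of endothelial barriers, did not pass the test in either mutant. Its log2 level was 6.60, 6.51 and 6.68 in Dgcr8 KO, 6.67, 6.48 and 6.52 in Dicer KO, against 6.65, 6.79 and 6.61 in WT cells, so the 3 genotypes overlapped. The log2 ratios to WT were -0.09 (SE 0.0732, limma adjusted p = 0.43) in Dgcr8 KO and -0.13 (SE 0.0732, limma adjusted p = 0.203) in Dicer KO. Among the endothelial markers the defining gene Cdh5 read 5.34 to 5.60 in Dgcr8 KO, 5.45 to 5.47 in Dicer KO and 5.39 to 5.47 in WT cells. The endothelial markers went several ways. Dgcr8 KO cells had 3 of the 9 called higher and 2 lower, where all transcripts gave 15.7% and 17.3%. For Dicer KO cells the counts were 2 and 2, where all transcripts gave 17.8% and 19.1%. Kdr rose in both mutants, with log2 ratios of 1.14 for Dgcr8 KO and 2.10 for Dicer KO. Tek rose in Dgcr8 KO by 1.14 and had a ratio of 0.03 in Dicer KO, while Egfl7 fell in both mutants, with ratios of -0.34 and, for Dicer KO, -0.58. The part of these markers in the level of Cldn5 was not tested.

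Cldn1, needed for the skin barrier, and Cldn10, known for its ion-selective splice forms in the kidney, also overlapped between genotypes. Cldn1 read 4.07 to 4.27 in Dgcr8 KO, 3.95 to 4.08 in Dicer KO and 3.98 to 4.14 in WT cells, with log2 ratios to WT of 0.06 and, for Dicer KO, -0.05. Its mean over the arrays stood at percentile 7.52 of the transcripts counted. Since the array has no true zero, so dim a value does not tell a low transcript from none. Cldn10 has 2 clusters of its own. The cluster 10417027 read 4.85 to 4.96 in Dgcr8 KO, 4.69 to 4.87 in Dicer KO and 4.87 on all 3 WT arrays. The cluster 10422312 read 4.90 to 5.03 in Dgcr8 KO, 4.90 to 4.94 in Dicer KO and 4.94 to 4.95 in WT cells. Values that repeat between arrays, as here, also occurred elsewhere in the table, where 459 clusters had 1 value on all 3 WT arrays. A further cluster carries the symbols of both Dzip1 and Cldn10 and cannot be given to either. It read 6.94, 7.07 and 6.79 in Dgcr8 KO, 6.52, 6.60 and 6.60 in Dicer KO, against 6.07, 6.53 and 6.31 in WT cells. This shared cluster was called higher in Dgcr8 KO (log2 ratio 0.63, limma adjusted p = 0.00179). In Dicer KO it was not called (0.27, limma adjusted p = 0.093).

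Seen together, some of the claudins formed 3 patterns over the 9 arrays. Cldn6 was low in Dgcr8 KO and near WT in Dicer KO. Cldn4, Cldn7 and Cldn9 were low in Dgcr8 KO and high in Dicer KO, and Cldn3 was high in Dicer KO alone. Cldn1, Cldn5, Cldn10 and Cldn12 were placed in none of these. Pearson's r over the 9 arrays was 0.95 between Cldn7 and Cldn9, 0.96 between Cldn4 and Cldn9, 0.94 between Cldn4 and Cldn7 and 0.36 between Cldn3 and Cldn6. The patterns were not sharply apart: r was also 0.93 between Cldn3 and Cldn7, 0.87 between Cldn4 and Cldn6, and 0.80 both between Cldn6 and Cldn9 and between Cldn3 and Cldn9. For Cldn12, r was 0.77 with Cldn6 and 0.72 with Cldn4. These r describe 9 arrays in 3 genotypes and carry no test.

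Of the other claudins on the array, 19 genes with a cluster each, few were called. In each mutant 1 was called lower than in WT and 0 higher, which is 5.26% of them. Over all transcripts 17.3% were called lower and 15.7% higher in Dgcr8 KO, and 19.1% lower and 17.8% higher in Dicer KO. Many of these clusters were dim: when the dimmest 25% of transcripts were left out, 8 of the 19 were left to test. At an unadjusted p under 0.05 there were 2 in Dgcr8 KO and 3 in Dicer KO. Their log2 ratios ran from -0.22 to 0.17 in Dgcr8 KO, with a median of -0.02, and from -0.38 to 0.09 in Dicer KO, with a median of -0.08. The gene called in both was Cldn34b2, an X-linked claudin-like gene, which falls outside the naming rule and is named after its values were seen. Cldn34b2 read 3.93 on each Dgcr8 KO array, 3.70, 3.70 and 3.90 in Dicer KO, against 4.25, 4.16 and 4.02 in WT cells. With a mean at percentile 6.35 of the transcripts counted, it is too dim to tell a low transcript from none. Its log2 ratios were -0.22 (limma adjusted p = 0.046) and, for Dicer KO, -0.38 (limma adjusted p = 0.00261). The count in Dgcr8 KO did not hold. It was 0 without WT replicate 1, WT replicate 2, Dgcr8 KO replicate 1 or Dgcr8 KO replicate 3. The same held without Dicer KO replicate 1 or Dicer KO replicate 2. The count was 2 without WT replicate 3 (both lower). Without Dgcr8 KO replicate 2 it was 2, both higher and so genes other than Cldn34b2. In Dicer KO the count was 2 without WT replicate 3. A further 3 clusters are shared by Gm2411, Cldn34c4 and Cldn34c1, were not given to a gene and are not in these counts. All 3 were called higher in both mutants. Their log2 ratios were 0.67, 0.77 and 0.65 in Dgcr8 KO (limma adjusted p up to 0.0043). In Dicer KO they were 0.39, 0.45 and 0.39 (limma adjusted p up to 0.0486). These clusters were dim, at 3.60 to 4.99, and their calls were not followed under the alternatives.

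**Figure D2:**
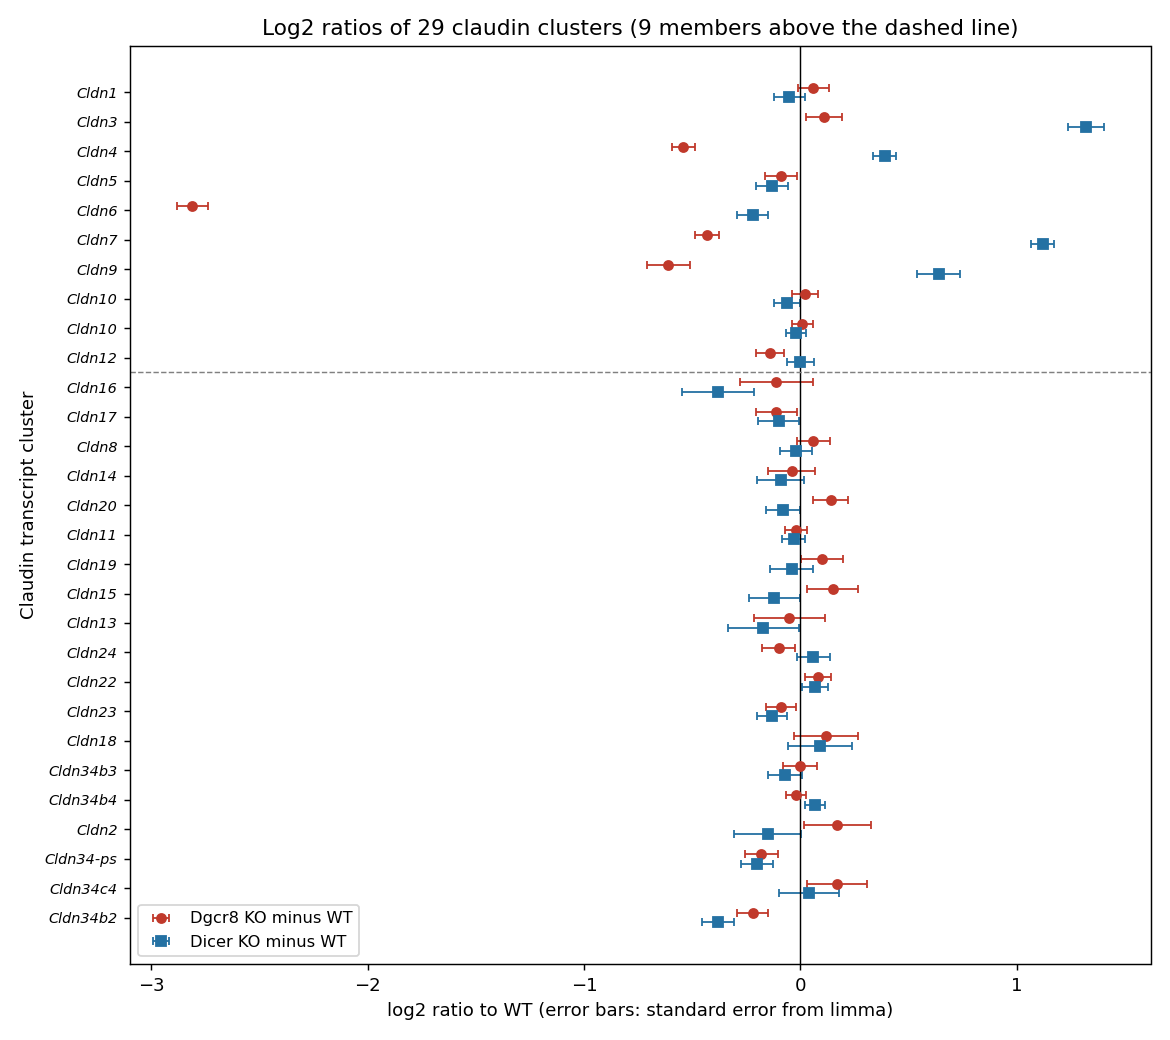
Log2 ratio to WT (x axis) of the 29 clusters that carry 1 claudin symbol alone (y axis), with the standard error from limma (n = 3 arrays per genotype). Clusters that carry several symbols are not drawn. Circles are Dgcr8 KO minus WT and squares Dicer KO minus WT. Above the dashed line, Cldn6 lies at -2.81 in Dgcr8 KO, and Cldn3 and Cldn7 lie at 1.32 and 1.12 in Dicer KO. Below the line no ratio is further from 0 than 0.38.

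Promoter windows are shown for Cldn6, Cldn7, Cldn4 and Cldn3, whose levels differed between genotypes, because repressors of claudin genes such as Zeb1 and Snai1 are known to bind E-boxes of the form CAGGTG, which reads CACCTG on the other strand. RefSeq windows (GRCm38.p6) run from 250 bases before to 50 bases after each annotated start. They were found for 8 of the 9 genes, in 12 windows, and Cldn9 had none here. The motif was searched on both strands, the 2 spellings being the same site. It stood in 4 of the 12 windows, those of Cldn3, Cldn4 and Cldn6 and 1 of the 2 of Cldn7, and in none of the windows of Cldn1, Cldn5, Cldn10 and Cldn12. Of all 32851 windows of the same length, 20.2% hold at least 1 such site and 2.88% at least 2. Below, the sites are in capitals, and of the 2 windows of Cldn7 the one with sites is given. The windows are chr17:23679115-23679414 on the plus strand for Cldn6, chr11:69965171-69965470 on the plus strand for Cldn7, chr5:134946885-134947184 on the minus strand for Cldn4 and chr5:134985964-134986263 on the plus strand for Cldn3.
Cldn6: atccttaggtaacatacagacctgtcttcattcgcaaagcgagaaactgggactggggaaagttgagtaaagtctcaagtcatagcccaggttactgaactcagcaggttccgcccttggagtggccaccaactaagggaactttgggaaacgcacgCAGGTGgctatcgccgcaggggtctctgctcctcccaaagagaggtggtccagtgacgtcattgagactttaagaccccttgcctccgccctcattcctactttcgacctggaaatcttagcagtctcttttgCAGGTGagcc
Cldn7: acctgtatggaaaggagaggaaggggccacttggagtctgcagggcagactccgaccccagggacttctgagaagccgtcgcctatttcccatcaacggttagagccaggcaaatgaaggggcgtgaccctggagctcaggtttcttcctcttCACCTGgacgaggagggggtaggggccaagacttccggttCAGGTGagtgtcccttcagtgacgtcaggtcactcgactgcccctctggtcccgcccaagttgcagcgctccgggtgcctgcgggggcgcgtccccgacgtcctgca
Cldn4: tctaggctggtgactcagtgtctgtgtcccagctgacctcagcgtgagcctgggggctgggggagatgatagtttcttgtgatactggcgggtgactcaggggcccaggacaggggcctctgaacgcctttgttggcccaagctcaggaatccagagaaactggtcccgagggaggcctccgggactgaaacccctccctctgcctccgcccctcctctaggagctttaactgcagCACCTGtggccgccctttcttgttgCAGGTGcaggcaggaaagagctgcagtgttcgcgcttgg
Cldn3: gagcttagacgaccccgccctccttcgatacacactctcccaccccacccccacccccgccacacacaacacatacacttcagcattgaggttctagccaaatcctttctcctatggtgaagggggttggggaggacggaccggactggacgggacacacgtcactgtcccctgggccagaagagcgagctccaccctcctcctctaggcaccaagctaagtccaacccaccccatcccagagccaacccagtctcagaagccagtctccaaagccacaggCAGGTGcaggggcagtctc
Counting from the annotated start, the first base of a site was at -93 and 40 in Cldn6, at -97 and -57 in Cldn7, at -14 and 11 in Cldn4 and at 31 in Cldn3. The grainyhead motif AACCGGTT, searched because Grhl2 is known to activate claudin genes, stood in 0 of the 12 windows and in 0.146% of all windows, which says only that these letters are not in these windows. The 2 Cldn7 windows had a GC content of 52% and 62.3%, that of Cldn6 52.3%, that of Cldn4 61% and that of Cldn3 60.7%, beside a median of 52.7% over all windows. These matches describe the sequence, and binding was not measured here.

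**Figure D3:**
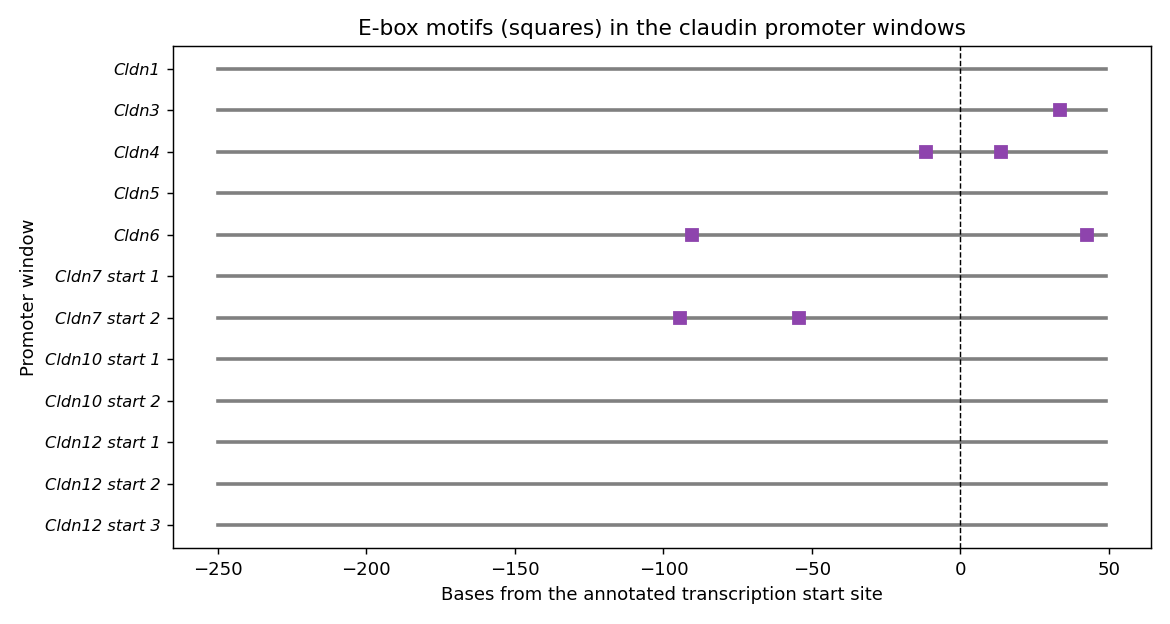
Position of the E-box motif (squares) in the 12 RefSeq promoter windows of 8 claudin genes (y axis), in bases from the annotated transcription start site (x axis, dashed line at the start). Sites appear in the windows of Cldn3, Cldn4 and Cldn6 and in the second window of Cldn7, and in no other.

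Genes whose profile over the 9 arrays was most like that of Cldn6 or Cldn7 were sought among 1874 clusters. Each of these carries 1 symbol and has a range of at least 1 on the log2 scale. Claudins, and genes with predicted or accession-type names, were left out of the search. For Cldn6 the most alike were Lgals1 (Pearson's r = 0.998), Bex4 (0.994), Ap1m2 (0.993), Itga3 (0.993) and Smim3 (0.99). Lgals1, which encodes galectin-1, averaged 9.21 ± 0.0447 in Dgcr8 KO, 10.98 ± 0.0355 in Dicer KO and 11.09 ± 0.0509 in WT cells (SD, n = 3 each). Ap1m2, a subunit of the adaptor for basolateral sorting in epithelial cells, averaged 8.23 ± 0.0767 in Dgcr8 KO, 9.27 ± 0.0915 in Dicer KO and 9.28 ± 0.055 in WT cells. For Cldn7 they were Krt19 (r = 0.996), Gipc2 (0.995), Rab15 (0.995), Fmr1nb (0.993) and Fhl1 (0.993). Krt19, a keratin of simple epithelia, averaged 7.55 ± 0.0605 in Dgcr8 KO, 9.26 ± 0.0799 in Dicer KO and 8.08 ± 0.042 in WT cells (SD, n = 3 each). With 3 genotypes such r are high for any gene with the same order and spacing of means, and they carry no test.

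Markers of other cell types were set beside these profiles. The summed level of 12 trophoblast markers followed the order of Cldn6, at 10.96 to 10.99 in Dgcr8 KO, 11.66 to 11.71 in Dicer KO and 11.90 to 12.00 in WT cells on the log2 scale, and 0 of the 12 were called higher and 6 lower in Dgcr8 KO, beside 15.7% and 17.3% of all transcripts. In Dicer KO 2 were called higher and 3 lower, beside 17.8% and 19.1%, and the 2 higher ones, Elf5 and Gata3 (log2 ratios 0.41 and 0.44), went against the order of the sum. Krt8, a simple-epithelium keratin on that list, read 9.29 to 9.41 in Dgcr8 KO, 10.27 to 10.36 in Dicer KO and 10.71 to 10.83 in WT cells. Its partner Krt18 read 7.77 to 7.98 in Dgcr8 KO, 9.35 on each Dicer KO array and 9.79 to 9.93 in WT cells. Levels were summed on the linear scale, so the brightest markers, above all Krt8, weigh most in the sum. Krt7 and Tfap2c did not follow its order, with means of 7.65 and 9.09 in Dicer KO and 7.52 and 8.95 in WT cells. The defining trophoblast gene Cdx2 read 6.13 to 6.31 in Dgcr8 KO, 6.22 to 6.31 in Dicer KO and 6.31 to 6.61 in WT cells, and Eomes overlapped between the genotypes. The part of these markers in the level of Cldn6 was not tested, and in such bulk RNA fewer cells of a type and less RNA per cell cannot be told apart. The sums of 16 primitive endoderm genes were 12.29 to 12.32 in Dgcr8 KO, 12.64 to 12.69 in Dicer KO and 12.06 to 12.12 in WT cells. Of their 17 clusters 2 were called higher and 3 lower in Dgcr8 KO, beside 15.7% and 17.3% of all transcripts. In Dicer KO 3 were called higher and 4 lower, beside 17.8% and 19.1%. Sparc, the brightest of them in each genotype, weighs most in these sums. It read 11.41 to 11.44 in Dgcr8 KO, 12.07 to 12.13 in Dicer KO and 10.37 to 10.46 in WT cells. The defining endoderm genes Gata6, Sox17 and Foxa2 were called in neither mutant. Cubn fell in both mutants, with log2 ratios of -1.26 for Dgcr8 KO and -1.46 for Dicer KO, as did 1 of the 2 clusters of Dab2 (-1.13 and, for Dicer KO, -1.15) and Lamb1 (2-fold and, for Dicer KO, 2.35-fold). The sums of 9 endothelial genes were 10.79 to 10.80 in Dgcr8 KO, 10.76 to 10.79 in Dicer KO and 10.16 to 10.29 in WT cells. Pecam1, the brightest of these genes and one that ES cells also express, weighs most in that sum. It read 9.69 to 9.78 in Dgcr8 KO, 9.82 to 9.91 in Dicer KO and 8.57 to 8.82 in WT cells. The sums of 12 fibroblast and feeder cell genes overlapped, at 9.83 to 10.04 in Dgcr8 KO, 9.80 to 9.89 in Dicer KO and 9.87 to 10.06 in WT cells.

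The claudins were then placed among the genes they work with: 86 junction genes in 5 lists by role, of which 82 were found, in 87 clusters. In Dgcr8 KO against WT 23 of the 87 were called higher and 29 lower, in Dicer KO against WT 30 higher and 17 lower, and in Dgcr8 KO against Dicer KO 11 higher and 34 lower. The shares of all transcripts called against WT were 15.7% higher, 17.3% lower for Dgcr8 KO and 17.8% higher, 19.1% lower for Dicer KO. These shares take in more dim transcripts than the junction lists do. Without the dimmest 25% of transcripts, 84 of the 87 junction clusters were left, with 24 higher and 29 lower in Dgcr8 KO. Of all 17249 transcripts left, 3641 were higher and 4162 lower there. In Dicer KO 30 junction clusters were then higher and 20 lower, beside 4169 and 4456 of all transcripts. Under SAM the junction genes called in Dgcr8 KO were 17 higher and 16 lower. Against WT, the junction genes had a median log2 ratio of -0.04 for Dgcr8 KO and 0.01 for Dicer KO, beside -0.01 and, for Dicer KO, -0.06 for all transcripts. In the comparison of the mutants 11.2% of all transcripts were called higher and 13.4% lower, and the median log2 ratio was -0.10 for the junction genes, beside 0.03 for all transcripts. The split of all transcripts there moved with the scaling, with 2574 higher and 3083 lower as deposited and 1787 higher and 3761 lower when each array was centred on its median.

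Membrane partners of the claudins went several ways. F11r (JAM-A), an adhesion protein of tight junctions, had the pattern of Cldn4 and Cldn9: it read 9.23, 9.43 and 9.34 in Dgcr8 KO, 10.15, 10.10 and 10.14 in Dicer KO, against 9.65, 9.81 and 9.81 in WT cells, and it fell in Dgcr8 KO (log2 ratio -0.42, limma adjusted p = 0.000741) and rose in Dicer KO (0.37, limma adjusted p = 0.0015). Its relative Jam2 rose in both mutants, by 1.43 on the log2 scale in Dgcr8 KO (limma adjusted p = 8.54e-08) and 0.80 in Dicer KO (limma adjusted p = 1.49e-06). Jam3 rose in Dgcr8 KO by 0.77 (limma adjusted p = 9.11e-06) and fell by 0.18 in Dicer KO (limma adjusted p = 0.0447). Ildr1, a protein of junctions where 3 cells meet, rose in both, with ratios of 0.82 in Dgcr8 KO cells and 0.72 in Dicer KO cells. Crb3, a polarity protein of the apical membrane, had a ratio of -0.24 in Dgcr8 KO (limma adjusted p = 0.125) and rose in Dicer KO by 0.38 (limma adjusted p = 0.0182). Cxadr, an adhesion protein related to F11r, rose in both mutants, by 0.89 in Dgcr8 KO (limma adjusted p = 1.31e-05) and by 1.03 in Dicer KO (limma adjusted p = 4e-06). Ocln, the occludin gene, did not pass the test in either, at 0.09 and, for Dicer KO, 0.19. Of the 27 scaffold and polarity clusters 6 were called higher and 12 lower in Dgcr8 KO (15.7% and 17.3% of all transcripts), and 5 higher and 10 lower in Dicer KO (17.8% and 19.1% of all transcripts). Cgn, which encodes cingulin, read 7.70, 7.87 and 7.79 in Dgcr8 KO, 8.76, 8.56 and 8.58 in Dicer KO, against 8.81, 8.80 and 8.99 in WT cells, and it fell in Dgcr8 KO by 1.08 on the log2 scale (limma adjusted p = 5.19e-06) and in Dicer KO by 0.24 (limma adjusted p = 0.0373). Its paralog Cgnl1 fell in both mutants too, with ratios of -0.70 in Dgcr8 KO cells and -0.90 in Dicer KO cells, as did Ybx3, at -0.21 and, for Dicer KO, -0.38, and Pard6g, at -0.62 and, for Dicer KO, -0.25. Sympk fell in 1 of its 3 clusters, by 0.27 in Dgcr8 KO and by 0.39 in Dicer KO, and the scaffold Patj rose in both, at 0.19 and, for Dicer KO, 0.48. The polarity genes Pard6b and Prkcz were lower in Dgcr8 KO, with ratios of -0.35 and, in 1 of the 2 clusters of Prkcz, -0.45, and were not called in Dicer KO, at 0.11 and 0.13. Amotl1 fell by 0.34 in Dgcr8 KO and rose by 0.40 in Dicer KO. Tjp1, the main scaffold that claudins bind, rose in Dgcr8 KO by 0.14 on the log2 scale (limma adjusted p = 0.0383). Its ratio in Dicer KO was close to that, at 0.11, but was not called (limma adjusted p = 0.092).

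Genes that bind claudins, cut or protect them, or act on them by phosphorylation had 5 clusters called higher and 4 lower of 11 in Dgcr8 KO, and 8 higher and 0 lower in Dicer KO. Over all transcripts the shares were 15.7% and 17.3% for Dgcr8 KO, with 17.8% and 19.1% for Dicer KO. St14, which encodes the protease matriptase, read 9.99 on each Dgcr8 KO array, averaged 10.95 ± 0.0494 in Dicer KO cells (SD, n = 3) and read 9.38, 9.45 and 9.40 in WT cells. It rose in Dicer KO by 1.53 on the log2 scale (limma adjusted p = 2.16e-08) and in Dgcr8 KO by 0.58 (limma adjusted p = 9.57e-06). Its inhibitor Spint1 rose in both mutants, with log2 ratios of 0.90 in Dgcr8 KO cells (limma adjusted p = 6.05e-07) and 0.85 in Dicer KO cells (limma adjusted p = 5.15e-07). Spint2, another inhibitor of St14, fell by 0.28 in Dgcr8 KO and rose by 0.18 in Dicer KO, and Prss8, the protease prostasin, fell by 0.32 in Dgcr8 KO and rose by 0.40 in Dicer KO. The tetraspanin Cd9 rose in both mutants, with ratios of 0.32 in Dgcr8 KO cells and 0.76 in Dicer KO cells, and so did both clusters of the kinase gene Wnk1, with ratios of 0.42 and 0.38 in Dgcr8 KO cells and 0.47 and 0.63 in Dicer KO cells. Epcam, the partner of Cldn7, fell in Dgcr8 KO by 0.26 on the log2 scale (limma adjusted p = 0.00195) and was not called in Dicer KO (limma adjusted p = 0.973).

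Among 17 transcription factors reported to act on claudin genes, 3 were called higher and 5 lower in Dgcr8 KO, beside 15.7% and 17.3% of all transcripts, and 3 higher and 2 lower in Dicer KO, beside 17.8% and 19.1%. Zeb1, a repressor of epithelial genes, read 8.58, 8.54 and 8.43 in Dgcr8 KO, 7.30, 7.33 and 7.31 in Dicer KO, against 7.05, 7.19 and 7.31 in WT cells. It rose in Dgcr8 KO by 1.33 on the log2 scale (SE 0.0714, limma adjusted p = 9.87e-07), and its ratio in Dicer KO was 0.13 (limma adjusted p = 0.206). Between the mutants it was higher in Dgcr8 KO by 1.21 on the log2 scale (limma adjusted p = 4.43e-06). Grhl2, an activator of epithelial genes, fell in Dgcr8 KO by 0.76 on the log2 scale (limma adjusted p = 1.15e-05), and its ratio in Dicer KO was -0.17 (limma adjusted p = 0.0579). Elf3, an epithelial ETS factor, read 8.39, 8.31 and 8.42 in Dgcr8 KO, 9.61, 9.61 and 9.49 in Dicer KO, against 7.82, 7.88 and 7.82 in WT cells, and it was higher in both mutants, by 0.53 and, for Dicer KO, 1.73 on the log2 scale (limma adjusted p = 4.77e-05 and 2.75e-08). Klf5 and Grhl3, factors of epithelial cells, rose in Dicer KO by 0.43 and 0.50 (limma adjusted p = 0.000134 and 0.000216) and were at -0.01 and -0.07 in Dgcr8 KO, where neither was called. Zeb2 was at 0.15 in Dgcr8 KO (limma adjusted p = 0.111) and fell by 0.26 in Dicer KO (limma adjusted p = 0.0106), and Gata4, an endoderm factor, rose in Dgcr8 KO by 0.35 (limma adjusted p = 0.00536) and was at -0.17 in Dicer KO (limma adjusted p = 0.119). Snai1 did not pass the test in either mutant, with log2 ratios of 0.17 in Dgcr8 KO (limma adjusted p = 0.0755) and -0.02 in Dicer KO (limma adjusted p = 0.856). The arrays on which Cldn6 was low were those on which Zeb1 was high and Grhl2 low, and the Dicer KO arrays, on which Cldn3 and Cldn7 were high, were those with the highest Elf3. A link between these genes and the claudins was not tested.

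In adherens junctions and desmosomes 5 clusters were called higher and 5 lower in Dgcr8 KO, and 9 higher and 2 lower in Dicer KO, of 21. All transcripts gave 15.7% and 17.3% for Dgcr8 KO, with 17.8% and 19.1% for Dicer KO. Dsp, the desmoplakin gene, read 8.03, 8.03 and 8.01 in Dgcr8 KO, 9.66, 9.66 and 9.60 in Dicer KO, against 7.47, 7.61 and 7.69 in WT cells, and rose by 2.05 on the log2 scale in Dicer KO (limma adjusted p = 2.06e-08) and 0.43 in Dgcr8 KO (limma adjusted p = 0.000379). The desmosomal cadherin gene Dsg2 rose in both mutants, by 0.51 in Dgcr8 KO (limma adjusted p = 3.64e-05) and 1.38 in Dicer KO (limma adjusted p = 5.78e-08). Dsc2 fell by 0.52 in Dgcr8 KO (limma adjusted p = 0.000577) and rose by 0.28 in Dicer KO (limma adjusted p = 0.0192). Perp, a desmosomal membrane protein, rose in Dicer KO by 0.93 (limma adjusted p = 2.77e-05) and was at 0.00 in Dgcr8 KO (limma adjusted p = 0.993). Cdh1, which encodes E-cadherin, fell in Dgcr8 KO by 0.34 on the log2 scale (limma adjusted p = 0.000386), and Cdh2, which encodes N-cadherin, rose there by 1.14 (limma adjusted p = 2.16e-05). In Dicer KO the ratio of Cdh1 was -0.13 (limma adjusted p = 0.0649), while Cdh2 rose by 0.64 (limma adjusted p = 0.000734). Pkp2, a desmosomal plaque protein, fell in both mutants, with log2 ratios of -1.23 in Dgcr8 KO cells (limma adjusted p = 2.69e-06) and -1.01 in Dicer KO cells (limma adjusted p = 7.14e-06).

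**Figure D4:**
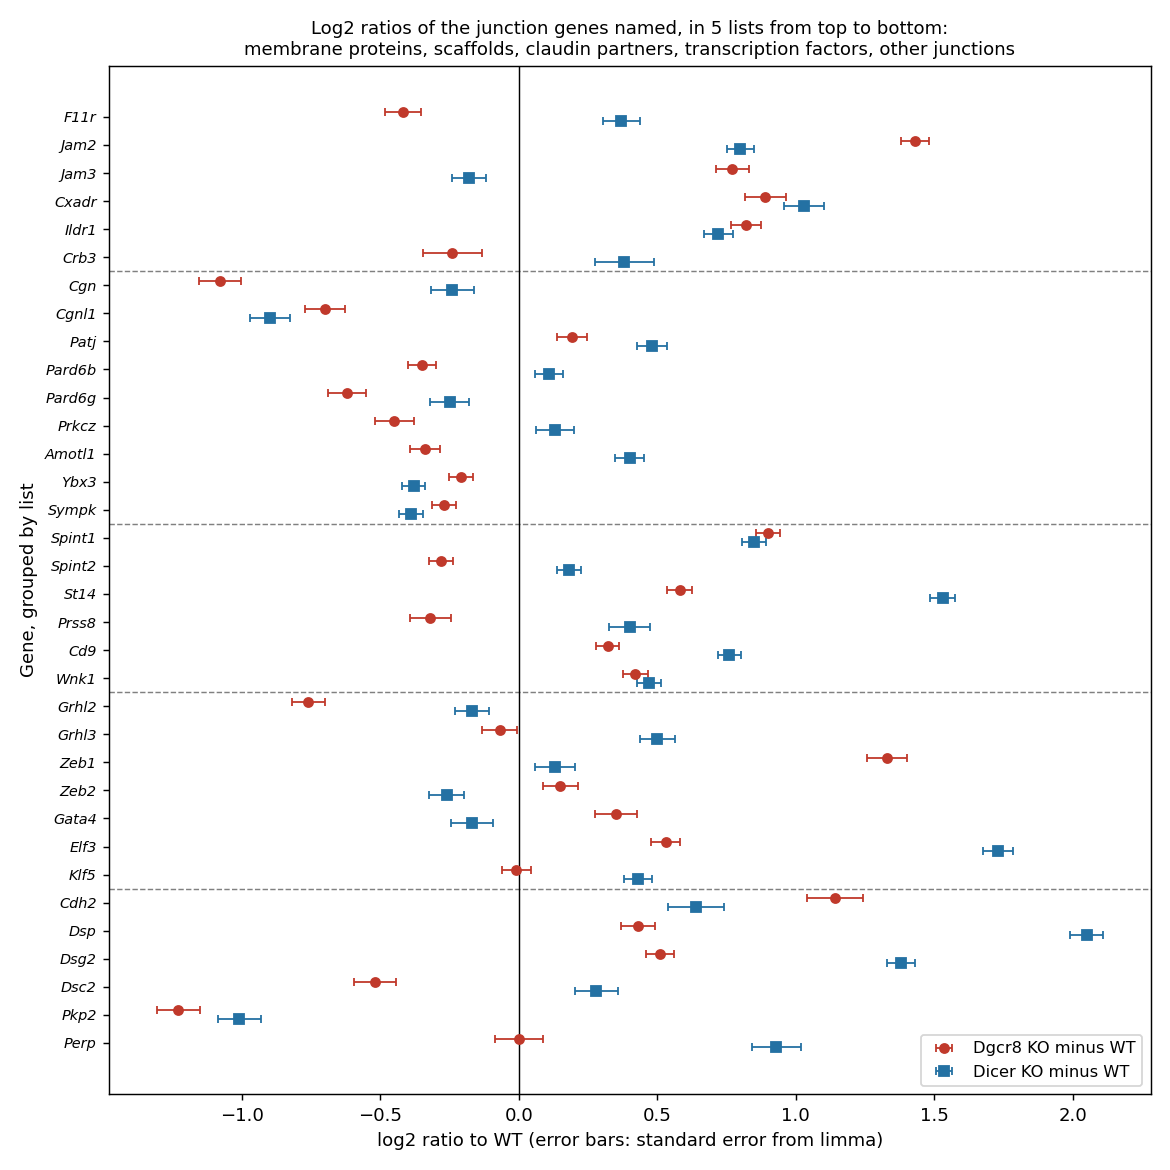
Log2 ratio to WT (x axis) of the 34 junction gene clusters picked by the naming rule (y axis), with the standard error from limma (n = 3 arrays per genotype), grouped into 5 lists by dashed lines. Circles are Dgcr8 KO minus WT and squares Dicer KO minus WT. The Dgcr8 KO circle lies at 1.33 for Zeb1, 0.53 for Elf3 and -1.08 for Cgn, and the Dicer KO square at 0.13 for Zeb1, 1.73 for Elf3 and -0.24 for Cgn.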

How the data were processed

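Total RNA of ES cells was hybridised to Affymetrix Mouse Gene 1.0 ST arrays. The log2 values were normalized by the authors before they were deposited: their methods name RMA and the processing notes name GCRMA, with versions not given in the sources used here. They were used as deposited, and 0 value columns were left without a sample. Because the table holds normalized values only, signal over background is unknown, and the number of arrays limits the precision. Groups came from the sample labels.

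Gene symbols were those of the platform annotation, and by symbol each gene was given its position and promoter windows in RefSeq (GRCm38.p6). Of 35557 clusters, 22999 were counted: those with a symbol, less 326 with only miRNA genes, 7 mitochondrial and 78 Y-linked ones. Means per genotype were fitted to all 9 arrays (6 residual degrees of freedom) with limma 3.58.1 in R 4.3.3 (lmFit, eBayes), with Benjamini-Hochberg adjustment over the 22999. SAM, which the methods used, was an alternative. Replicate numbers were not taken to pair arrays, since same-numbered arrays did not steadily deviate together.

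The claudins and gene lists were chosen with earlier results of these data known. Text names every claudin member, other claudins called with a log2 ratio of at least 0.5, up to 4 called genes with the smallest adjusted p per junction list and comparison, and the 5 genes most like Cldn6 or Cldn7. Other junction genes named (Ocln, Tjp1, Epcam, Snai1 and Cdh1) were added for their role, and single marker genes as examples, after the values were seen. In all, 20 alternatives were planned and 1 was added after seeing the data. Scripts were tested on simulated data. Small RNA reads and hairpin predictions were not used here.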

Additional observations from a re-analysis of the deposited data

Results flagged for a closer look

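Among the 29 claudin clusters and the 87 junction gene clusters, those of 16 genes met a rule on single arrays. Every array of 1 mutant lay above, and every array of the other below, all WT arrays. How many of all transcripts meet this rule was not counted, so neither this number nor its split by direction can be called unusual. The difference between the mutants was fixed by how these genes were picked and so was not tested here. In Dgcr8 KO and Dicer KO the log2 ratios to WT were -0.43 and 1.12 for Cldn7, -0.61 and 0.64 for Cldn9, and -0.54 and 0.39 for Cldn4, the 3 claudins among them. Among membrane proteins of tight junctions they were 0.77 and -0.18 for Jam3, -0.42 and 0.37 for F11r and -0.24 and 0.38 for Crb3. The polarity proteins Pard6b and Amotl1 had -0.35 and 0.11, and -0.34 and 0.40. For the protease inhibitor Spint2 the ratios were -0.28 and 0.18, for the protease Prss8 -0.32 and 0.40, and for the receptor kinase Epha2 -0.25 and 0.24. Zeb2, a relative of Zeb1, was at 0.15 and -0.26. In adherens junctions and desmosomes the ratios were 0.14 and -0.46 for Cdh3, -0.32 and 0.14 for Ctnna1, -0.05 and 0.37 for Nectin1 and -0.52 and 0.28 for Dsc2. Jam3, Zeb2 and Cdh3 were higher than WT in Dgcr8 KO, and the other 13 were lower there. Both ratios of a gene share the WT arrays.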

How the results depend on the processing

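The calls of Cldn3, Cldn4 and Cldn9 against WT kept their direction and their side of the threshold under all alternatives, with 2 calls in Dgcr8 KO cells and 3 calls in Dicer KO cells throughout, except for 3 in Dgcr8 KO without WT replicate 1 (Cldn3) or WT replicate 2 (Cldn12). The single other claudin called in Dgcr8 KO was lost (count 0) under SAM, with only the 6 arrays compared, with all rows tested, without the dimmest 25%, with a variance trend and robust fit, with array weights and at an adjusted p under 0.01. With 1 array left out that count ran from 0 to 2, and in Dicer KO from 1 to 2. In Dicer KO it was 2 under SAM and 0 without the dimmest 25%, where 8 of the 19 were left to test. SAM called 33 junction genes in Dgcr8 KO against WT (17 higher, 16 lower) in place of 52, and 4774 transcripts in all in place of 7590. At an adjusted p under 0.01, 3393 transcripts in place of 5657 differed between the mutants. Without WT replicate 1 and Dgcr8 KO replicate 2 together, an alternative added after seeing the data, 2 other claudins were called in Dgcr8 KO, both higher. No called log2 ratio of a claudin, or of a junction gene in the comparison that picked it, changed sign, but the split of several counts turned. The other claudins called in Dgcr8 KO were 0 higher and 1 lower, against 2 higher and 0 lower without Dgcr8 KO replicate 2. The junction genes called there were 23 higher and 29 lower, and under SAM more were higher than lower. For all transcripts, Dgcr8 KO against WT had 3615 higher and 3975 lower, and 4351 and 3663 under cyclic loess, 2542 and 2232 under SAM. Dicer KO against WT had 4087 higher and 4387 lower, and 4476 and 3324 after median centring, 4736 and 3797 under cyclic loess, 3560 and 3429 under SAM. Between the mutants SAM called 4494 higher and 3868 lower. The causes of these moves were not tested.

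Correlations of the deviations were -0.20 to 0.34 between same-numbered arrays of different genotypes and -0.46 to 0.32 between differently numbered ones. The numbers thus showed no steady pairing, and whether some arrays shared their handling was not tested. With the replicate block the counts were 2 and 3 for the 7 claudins in Dgcr8 KO and Dicer KO, 0 and 1 for the other claudins, 52, 46 and 44 for junction genes in Dgcr8 KO against WT, Dicer KO against WT and Dgcr8 KO against Dicer KO, and 7539, 8543 and 5659 for all transcripts.

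Among single values, 2 of those of the claudins passed the threshold in 1 alternative each, and 5 with no test moved by more than 1 SD: Dgcr8 KO minus Dicer KO was -0.87 and -0.98 for Cldn4 after repeated quantile normalization and after median centring, and for Cldn10 it stayed between -0.04 and 0.11. Of the junction genes, Zeb2 in Dicer KO lost its call under cyclic loess (log2 ratio -0.17, limma adjusted p = 0.0561, range over alternatives 0.00478 to 0.0561) and at the stricter threshold. Dim clusters such as those of Cldn1 and Cldn10 limit what can be seen of small changes.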
